A study of Bos taurus with 4 samples.

Results

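Cells hold cholesterol at a set level by making it, taking it up, storing it and exporting it. Synthesis runs from acetyl-CoA through mevalonate, farnesyl diphosphate, squalene and lanosterol, and many of its enzymes are induced together by the transcription factor SREBP-2 when membrane sterol is low. Export is carried by ABC transporters that liver X receptors switch on when sterols accumulate, as known mainly from mouse and human cells. In the mammary gland cholesterol enters milk with the membrane of the fat globule. The 27 genes described here are 18 enzymes of synthesis and 9 genes of uptake, transport, storage, export and oxidation, taken by symbol from the 31021 genes of the deposited RNA-seq table. All 27 were of the type mRNA.

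The cells were primary mammary epithelial cells of dairy cows of the Chinese Holstein breed, obtained from the gland by culture of tissue and digestion with enzymes. There were 2 RNA-seq libraries, titled HH and LL, and a small RNA library under each of the same codes. The series describes cows with a high (4.85%) or low (3.41%) milk fat percentage. What the codes stand for is not spelled out, and neither is the number of cows behind a library. The phenotype label reads high for both RNA-seq libraries and low for both small RNA libraries, so it separates the kinds of library and not the codes. Differences are therefore between HH and LL as titled, and not between high and low milk fat. No agent or genotype is named in the labels.

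The RNA-seq libraries held 17369144 counts in HH and 16318951 in LL, of which the 27 genes took 0.166% in HH and 0.171% in LL. Each code is 1 library, so no difference has a replicate check and no p-value was computed. The interval beside each ratio is the exact 95% interval of the share of a gene's counts that came from HH, after TMM scaling, and it covers counting error of reads only. Ratios were set against a limit, the whole interval past a difference of 25% (0.32 on the log2 scale, the higher library over the lower), and a stricter one, past 2-fold, among the 12804 genes with at least 100 summed counts. All 27 genes were above that minimum. Luminal keratins and claudins marked both libraries as epithelial: 8 listed luminal markers summed to 8421 CPM (TMM-scaled counts per 1000000) in HH and 5498 CPM in LL. Markers of other cell types were present as well, and their values stand beside the results they bear on.

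Transcripts of 11 of the 18 cholesterol synthesis enzymes were higher in HH by their whole interval, as were 27.2% of all tested genes. Those of the exporters ABCA1 and ABCG1 were lower in HH. Of the 18 enzymes, 4 were higher in HH past 25%, each by close to 2-fold, and none was lower in HH by that margin. Of the other 9 genes, the lipoprotein receptor gene SCARB1 was higher in HH past 25%, and the exporters ABCA1 and ABCG1 were lower. Of all tested genes, 9.81% passed 25% as higher in HH and 7.08% as higher in LL. Over the 9528 genes with summed counts in the range of the synthesis enzymes (112 to 2193), 9.51% passed as higher in HH and 6.22% as higher in LL. ABCA1 was the 1 gene of the 27 past 2-fold, a limit passed in either direction by 2.87% of all tested genes and by 2.90% of those in that range.

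**Figure D1:**
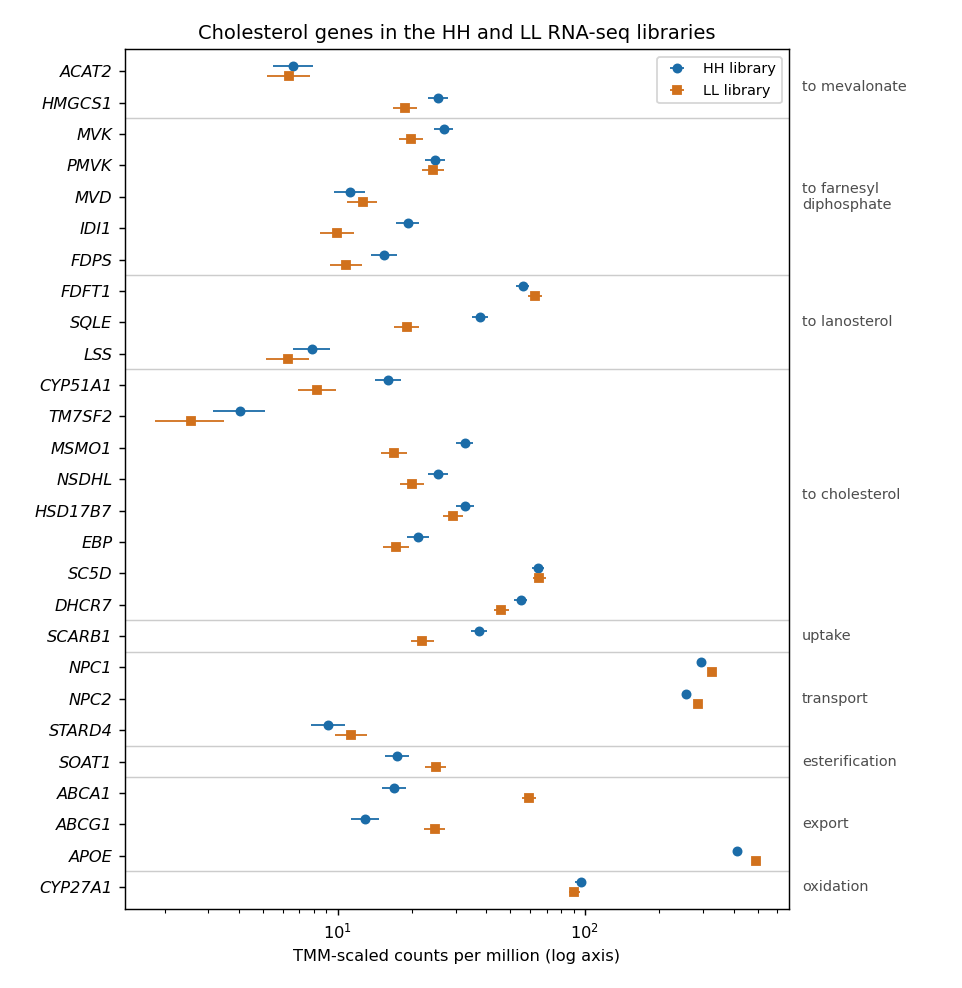
TMM-scaled counts, in CPM, of each of the 27 genes in the HH library (circles) and the LL library (squares), on a log axis, with exact 95% Poisson intervals of the count and the step or role at the right. The circles of IDI1, SQLE, CYP51A1, MSMO1 and SCARB1 lie to the right of their squares with no overlap of intervals. So do those of HMGCS1, MVK, FDPS, NSDHL and DHCR7. Circles of ABCA1, ABCG1, SOAT1, NPC1, NPC2 and APOE lie to the left of their squares, also with no overlap. The intervals of the other genes overlap. Levels are not corrected for gene length, so they compare libraries and not genes.

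Neither enzyme of the first steps passed 25%. ACAT2, the cytosolic thiolase that joins acetyl-CoA units, had 117 counts in HH and 102 in LL, for a log2 ratio of 0.06 with an interval of −0.33 to 0.46. In RefSeq (ARS-UCD2.0) it overlaps TCP1, which had 1850 counts in HH and 1547 in LL, so some of its reads could belong to that gene. HMGCS1, the synthase that adds the next acetyl unit, had 450 counts in HH and 301 in LL, and its log2 ratio was 0.44 (0.23 to 0.66). That interval lay above 0 but reached below the limit of 25%.

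From mevalonate to farnesyl diphosphate the 5 enzymes had unequal ratios. IDI1, the isomerase that interconverts the isopentenyl and dimethylallyl diphosphate building blocks, had 339 counts in HH and 160 in LL. It was 1.93-fold higher in HH (1.59 to 2.34). FDPS, which makes farnesyl diphosphate, had 272 counts in HH and 174 in LL, for a log2 ratio of 0.51 (0.23 to 0.79), and mevalonate kinase MVK had 474 in HH and 318 in LL (0.44, interval 0.23 to 0.65). Both had intervals above 0 without passing 25%. The intervals of the other enzymes of this stretch held 0. PMVK, the second kinase, had 438 counts in HH and 391 in LL (0.03, −0.17 to 0.23), and the decarboxylase MVD had 198 in HH and 203 in LL (−0.17, −0.46 to 0.12).

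The steps that commit farnesyl diphosphate to sterols also had unequal ratios. FDFT1, squalene synthase, had 990 counts in HH and 1009 in LL, for a log2 ratio of −0.16 (−0.29 to −0.04). The next enzyme, squalene epoxidase SQLE, which is a rate-limiting step of synthesis, had 667 counts in HH and 306 in LL. SQLE stood at 37.8 CPM in HH (35.0 to 40.7) and 19.1 CPM in LL (17.0 to 21.3), and was 1.98-fold higher in HH (1.73 to 2.28). It had the highest ratio of the 27 genes, and 3.61% of all tested genes had a higher one. The intervals of FDFT1 and SQLE did not overlap. LSS, which closes the rings to form lanosterol, had 139 counts in HH and 101 in LL (0.32, −0.06 to 0.71), an interval that holds 0.

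Among the 8 enzymes that turn lanosterol into cholesterol, 2 that act on its extra methyl groups early in the path had the highest ratios of HH over LL, although the wide interval of TM7SF2 covered both. CYP51A1, the 14-alpha demethylase, had 283 counts in HH and 133 in LL and was 1.93-fold higher in HH (1.57 to 2.40). MSMO1, the C4-methylsterol oxidase, had 576 counts in HH and 272 in LL and was 1.93-fold higher in HH (1.66 to 2.23). Both intervals lay above those of NSDHL and HSD17B7, which act in the same stage. NSDHL, the dehydrogenase that follows MSMO1 in C4 demethylation, had 451 counts in HH and 321 in LL (log2 ratio 0.35, 0.14 to 0.56). HSD17B7, the keto-reductase of that cycle, had 580 in HH and 472 in LL (0.16, −0.02 to 0.34). TM7SF2, the delta-14 reductase, had the fewest counts of the 27 genes, 71 in HH and 41 in LL, and its 1.57-fold higher level in HH had a wide interval (1.06 to 2.37).

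The last enzymes of the path had smaller ratios. The isomerase EBP had 374 counts in HH and 277 in LL (0.30, 0.07 to 0.53). SC5D, the sterol desaturase, had 1143 in HH and 1050 in LL (−0.02, −0.14 to 0.11). DHCR7, the delta-7 reductase that forms cholesterol, had 970 counts in HH and 738 in LL (0.26, 0.12 to 0.40). None of the 3 passed 25%.

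Over all 18 enzymes the median log2 ratio was 0.34, where that of all tested genes was −0.01 with quartiles at −0.23 and 0.24. The ratio was above 0 for 15 enzymes and below it for FDFT1, MVD and SC5D, although SC5D was at 0.03 under total-count scaling. The whole interval lay above 0 for 11 enzymes and below 0 for FDFT1, where 27.9% of all tested genes had intervals below 0. The 4 enzymes past 25%, IDI1, SQLE, CYP51A1 and MSMO1, had log2 ratios between 0.94 and 0.99, with intervals that overlapped. The whole interval of 12 other enzymes lay below the lower bound of SQLE. The summed transcripts of the pathway had a lower ratio than these 4, and the enzymes with most counts, SC5D, FDFT1 and DHCR7, had log2 ratios between −0.16 and 0.26. The sum was 8532 counts in HH and 6369 in LL, or 483 CPM in HH and 397 CPM in LL, 1.22-fold higher in HH (1.18 to 1.26). The intervals of 4 enzymes lay above this summed ratio, those of 4 below it, and those of 10 held it.

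**Figure D2:**
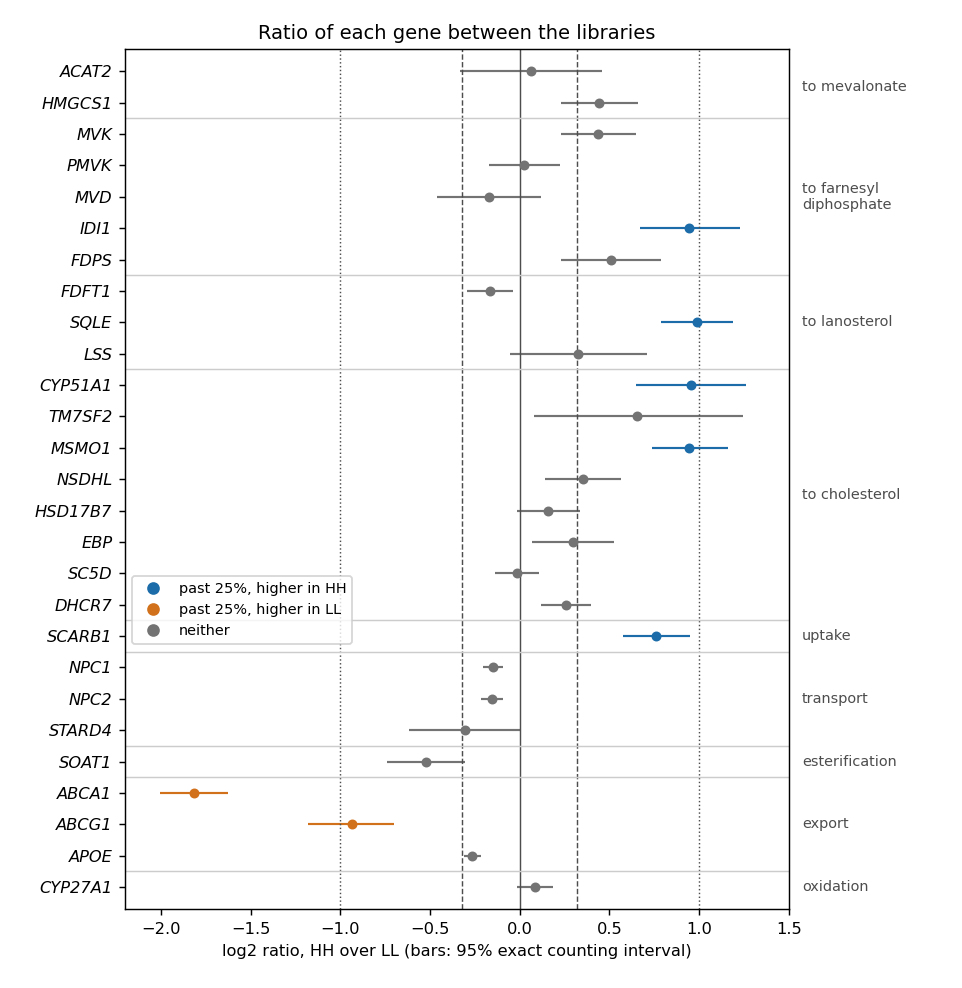
Log2 ratio of the HH over the LL library for each gene (points) with its exact 95% counting interval (bars), ordered by step. Dashed lines mark a difference of 25% and dotted lines 2-fold. IDI1, SQLE, CYP51A1, MSMO1 and SCARB1 lie wholly to the right of the dashed line, ABCG1 lies wholly to the left of it, and ABCA1 lies wholly to the left of the dotted line.

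Uptake and intracellular transport genes did not share a direction. SCARB1, the scavenger receptor that takes up cholesteryl ester from high-density lipoprotein, had 660 counts in HH and 354 in LL. At 37.4 CPM in HH and 22.1 CPM in LL it was 1.70-fold higher in HH (1.49 to 1.93). The lysosomal pair that passes cholesterol out of the lysosome was lower in HH by a small margin. NPC1 had 5199 counts in HH and 5242 in LL (log2 ratio −0.15, −0.20 to −0.09), and NPC2 had 4526 in HH and 4581 in LL (−0.15, −0.21 to −0.10). Their counts were high enough for narrow intervals below 0, but neither reached 25%. In RefSeq NPC1 overlaps the gene RMC1. STARD4, a cytosolic sterol carrier, had 162 counts in HH and 182 in LL (−0.31, −0.62 to 0.01). That interval held 0. STARD4 is itself a target of SREBP-2 in mouse cells, and the part of SREBP-2 in its ratio was not tested.

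The storage gene and the 3 export genes all had ratios below 0, and ABCA1 and ABCG1 passed 25%. SOAT1, which esterifies cholesterol for storage in droplets, had 307 counts in HH and 401 in LL (log2 ratio −0.52, −0.74 to −0.30), and its interval just reached inside the limit of 25%. ABCA1, the transporter that loads cholesterol on apolipoprotein A-I, had 299 counts in HH and 957 in LL. It stood at 16.9 CPM in HH (15.1 to 19.0) and 59.6 CPM in LL (55.9 to 63.5), 3.52-fold lower in HH (3.09 to 4.02). Its log2 ratio of −1.82 was the lowest of the 27 genes, and 61 of the 12804 tested genes were lower. ABCG1, which passes sterol to high-density lipoprotein, had 228 counts in HH and 397 in LL, 1.92-fold lower in HH (1.62 to 2.26). APOE, the apolipoprotein that accepts exported lipid, had 7251 counts in HH and 7917 in LL (−0.26, −0.31 to −0.22), below 0 but inside 25%. CYP27A1, the mitochondrial enzyme that oxidises the sterol side chain, had 1696 counts in HH and 1454 in LL (0.08, −0.02 to 0.19).

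The 9 genes had a median log2 ratio of −0.26. The ratio was above 0 for SCARB1 and CYP27A1 and below 0 for the other 7, and 6 of these had whole intervals below 0. A comparison inside each library needs no scaling between them. The 18 synthesis enzymes had 16.2 counts for each count of ABCA1 and ABCG1 in HH and 4.70 in LL, a 3.44-fold higher ratio in HH (3.09 to 3.83). SCARB1 had 2.21 counts per ABCA1 count in HH and 0.370 in LL, a 5.96-fold difference (4.95 to 7.20). Against APOE, the third export gene, the synthesis enzymes had 1.18 counts per count in HH and 0.804 in LL, a difference of 1.46-fold (1.40 to 1.53). These ratios were chosen after the values were seen, and ABCA1 and ABCG1 had the lowest log2 ratios of the 27 genes.

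**Figure D3:**
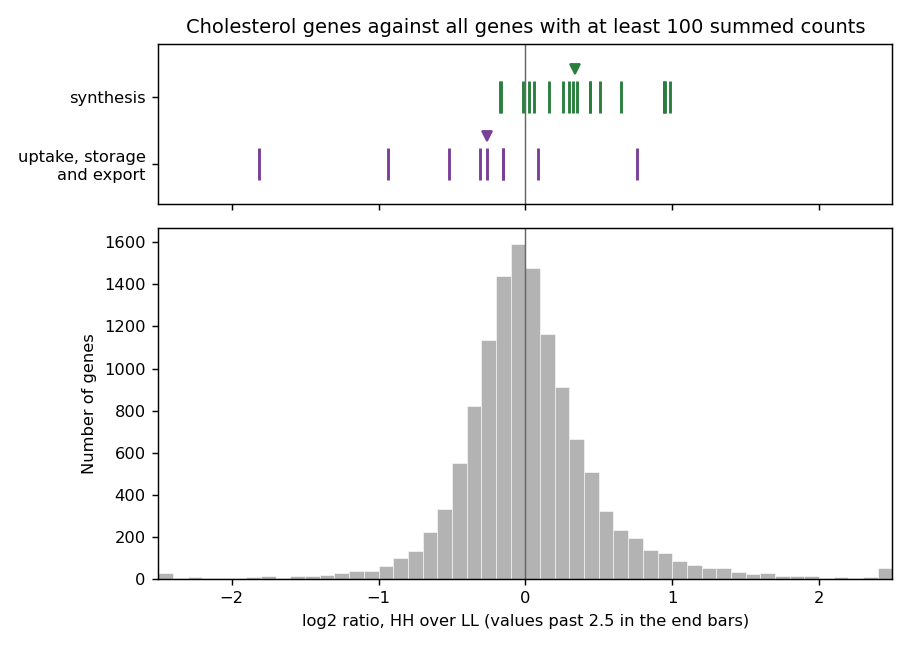
Upper panel, log2 ratios of HH over LL of the 18 synthesis enzymes and of the 9 uptake, storage and export genes (bars), with the median of each as a triangle (0.34 and −0.26). Lower panel, histogram of the log2 ratios of all 12804 tested genes, whose median was −0.01. The synthesis bars lie mostly right of 0 and reach 0.99, and ABCA1 lies far in the left tail at −1.82.

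In bulk RNA, fewer cells of a type and less RNA per cell cannot be told apart, and marker genes of several cell types differed between the libraries. Basal and myoepithelial markers summed to 3192 CPM in HH and 1562 CPM in LL, with 5 of 7 past 25% in HH. Luminal markers had 5 of 8 and fibroblast markers 5 of 7 past 25% in HH, the fibroblast list summing to 655 CPM in HH and 525 CPM in LL. Another fibroblast marker had its whole interval below 0. Over all tested genes, 9.81% passed 25% as higher in HH and 7.08% as higher in LL. The endothelial list had the lower sum in HH, at 706 CPM in HH and 870 CPM in LL, with 1 of 5 past 25% in LL. Its members did not share a direction, with whole intervals below 0 for 3 and above 0 for 1. The 4 listed T cell markers summed to 42.4 CPM in HH and 25.5 CPM in LL, with 2 of 3 tested past 25% in HH. The interval of the marker below the minimum held 0. The 4 adipocyte markers in the table summed to 6.29 CPM in HH and 6.23 CPM in LL, and the 1 tested did not pass 25%. The cell cycle list summed to 84.4 CPM in HH and 113 CPM in LL, with 1 of 5 tested genes past 25% in LL. Its 5 tested genes had a median log2 ratio of 0.08, with 3 above 0 and 2 below. The gene past 25%, named after its values were seen, was MKI67, a marker of dividing cells. It had 12 counts in HH and 472 in LL, or 0.68 CPM in HH and 29.4 CPM in LL. Most of the difference between the sums of the list came from MKI67. The 3 genes of the list below the minimum of 100 summed counts were TOP2A, CCNB1 and CDK1. TOP2A had 12 counts in HH and 60 in LL (log2 ratio −2.46, −3.49 to −1.55). CCNB1 had 3 in HH and 19 in LL (−2.80, −5.20 to −1.04), and CDK1 had 42 in HH and 24 in LL (0.67, −0.09 to 1.46). No listed luminal, basal, fibroblast or endothelial marker was at 0 in either library. The part of these cell types, and of proliferation, in the ratios of the 27 genes was not tested. Macrophages also express ABCA1, ABCG1, APOE and NPC2. Their 10 markers were all detected in both libraries and summed to 305 CPM in HH and 322 CPM in LL, for a log2 ratio of −0.08 (−0.14 to −0.02). None of the 10 passed 25%, but the whole interval lay above 0 for 2 and below 0 for 3. The part of macrophages in the ratios of the export genes was not tested.

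Genes that sense sterol and set the pathway's activity were compared next, from a list of 16 of which 15 were in the table. Of these, 2 were higher in HH past 25% and 2 lower. Of all 12804 tested genes, 9.81% passed as higher in HH and 7.08% as higher in LL. SREBF2, which encodes SREBP-2, had 3543 counts in HH and 2177 in LL, for a log2 ratio of 0.57 (0.49 to 0.64). INSIG1, which holds SREBP in the endoplasmic reticulum and is itself induced by it, had 853 counts in HH and 501 in LL (0.63, 0.47 to 0.79). On the other side, SREBF1, whose products drive fatty acid synthesis, had 5127 counts in HH and 7814 in LL (−0.75, −0.80 to −0.69). MYLIP, a ubiquitin ligase that degrades lipoprotein receptors, had 807 counts in HH and 1973 in LL and was past 2-fold (−1.43, −1.55 to −1.31). The list's median was −0.07. Neither gene of the liver X receptors, chosen later than the other genes named from this list, passed 25%. NR1H3 had 295 counts in HH and 361 in LL (−0.43, −0.66 to −0.20), and NR1H2 had 2013 in HH and 1660 in LL (0.14, 0.05 to 0.23).

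The gene of miR-33a lies within SREBF2 in RefSeq (ARS-UCD2.0). In mouse and human cells this miRNA lowers ABCA1, and in human cells it also lowers NPC1. Its leading tag in the HH small RNA library is printed because both genes are among the 27 genes, in DNA letters as in the deposited file, with the seed (bases 2 to 8) in capitals.
bta-mir-33a: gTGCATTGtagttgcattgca
Tags of this 21 nt sequence or of its first 18 to 20 bases had 288 reads in HH and 16 in LL, or 40.6 per 1000000 miRNA reads in HH (36.1 to 45.6) and 1.77 in LL (1.01 to 2.87), a 23.0-fold higher share in HH (13.9 to 40.8). The whole 21 nt tag made up 171 of the 288 reads in HH (59.4%, exact interval 53.5 to 65.1%) and 1 of the 16 in LL (6.25%, 0.158 to 30.2%). The share in LL rests on 16 reads, and the ratio of miR-33a was not set beside those of other miRNAs. The pairing of the small RNA and RNA-seq libraries rests on the title codes alone. In the RNA-seq libraries ABCA1 was 3.52-fold lower in HH, whereas NPC1 was within 25%. Whether the miRNA had a part in either value was not tested.

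Other enzymes and branches of the pathway gave smaller differences. Of LBR and 3 electron donors of the sterol oxidases, only the cytochrome b5 reductase CYB5R3 passed 25%, with 9416 counts in HH and 6406 in LL (log2 ratio 0.42, 0.37 to 0.46). LBR, which shares the delta-14 reductase step with TM7SF2, had 350 counts in HH and 380 in LL (−0.26, −0.47 to −0.04). Among all tested genes, 9.81% passed as higher in HH and 7.08% as higher in LL. The branch that leaves farnesyl diphosphate for isoprenoids other than sterols had a median of −0.12 over 13 genes, and none passed 25% in either direction. Its largest ratios were DHDDS at −0.45, which makes dolichol, PDSS1 at −0.38, which makes the ubiquinone tail, GGPS1 at 0.37, which makes geranylgeranyl diphosphate, and RABGGTA at 0.27, a subunit of the Rab prenyltransferase.

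Of 22 tested genes of other uptake and sterol transport, 4 were higher in HH past 25% and 5 lower, with a median of −0.05. Over all tested genes, 9.81% passed as higher in HH and 7.08% as higher in LL. The lipoprotein receptor gene VLDLR had 1098 counts in HH and 473 in LL (1.08, 0.92 to 1.24). Its relative LRP8 went the other way, with 122 counts in HH and 240 in LL (−1.11, −1.44 to −0.79). CAV1, the coat protein of caveolae, had 11259 counts in HH and 5176 in LL (0.98, 0.94 to 1.03), and OSBPL5, an oxysterol-binding protein of membrane contact sites, had 999 in HH and 1627 in LL (−0.84, −0.96 to −0.73). ABCG2, an ABC transporter that secretes riboflavin and drugs into milk, was singled out after its values were seen. It had 2693 counts in HH and 1631 in LL (0.59, 0.50 to 0.68), the other direction from ABCA1 and ABCG1. Fatty acid synthesis, the neighbouring SREBP pathway, had 3 of 8 tested genes past 25% in HH and none in LL, with a median of 0.35. SCD, the desaturase, had 21254 counts in HH and 9359 in LL (1.05, 1.01 to 1.08), ELOVL6 was at 0.71 (0.37 to 1.07) and FASN at 0.36 (0.33 to 0.38). FADS1, at 0.45 (0.15 to 0.76), did not pass. Of the 8, 5 had whole intervals above 0 and 2 below 0. The latter, named after their values were seen, were ACACA at −0.20 (−0.27 to −0.13) and ACSS2 at −0.11 (−0.20 to −0.02). The difference between the fatty acid and the cholesterol list was not tested.

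**Figure D4:**
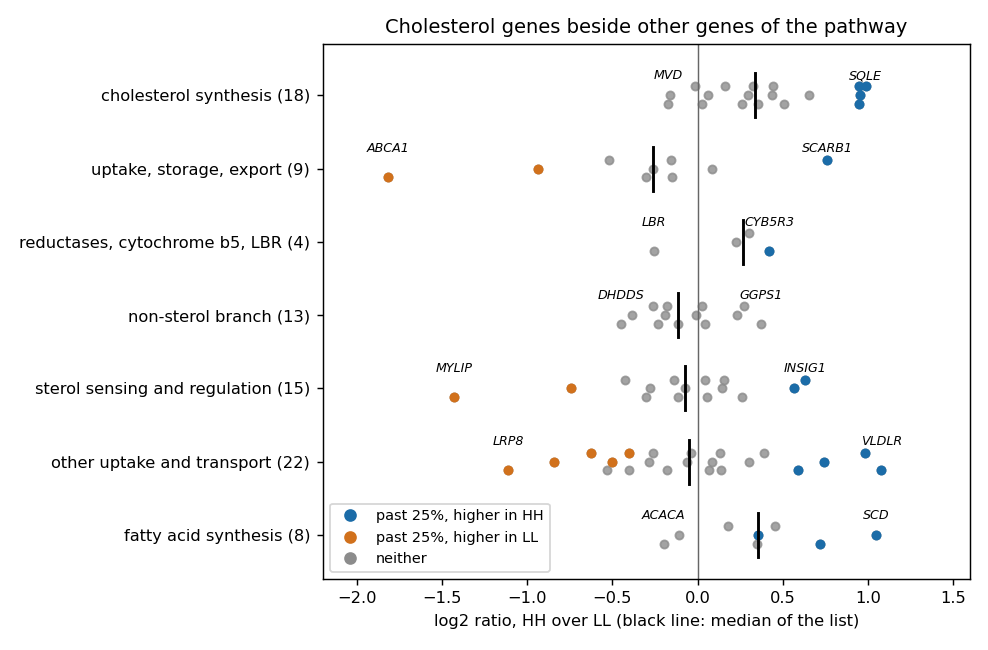
Log2 ratio of HH over LL of each tested gene (points) in the 2 groups of cholesterol genes and in 5 further lists, with the number of tested genes in brackets and the median as a black line. Filled blue and orange points are past 25%, higher in HH or in LL. The medians of cholesterol and fatty acid synthesis lie at 0.34 and 0.35, and those of the regulators, the non-sterol branch and other transport genes between −0.12 and −0.05.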

How the data were processed

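The authors deposited raw read counts of each gene in 1 table, with columns HH and LL per the file headers, and for each small RNA library a list of miRNA tags with their read counts. Aligner, counter, strand setting, build and annotation: not given in the sources used here. No coordinates are printed for this reason. Libraries were grouped by title. The members and lists were chosen with earlier results of these data known.

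Ratios were computed from the counts as deposited, scaled by TMM (edgeR 4.0.16 in R 4.3.3), with exact (Clopper-Pearson) 95% intervals of the share of counts from HH (scipy 1.17.1). Levels have exact Poisson intervals. The labels name no molecular identifiers, so reads may not be independent molecules and the intervals cover counting error only. The steps were tested on simulated counts. Ratios of counts within a library used the exact conditional odds ratio. Tags of miR-33a were scaled to all listed miRNA reads of their library, which are not library depths.

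All 27 genes are named. Of the other pathway lists (not the marker lists), genes past 2-fold and up to 4 with the largest ratios among those with at least 100 summed counts were named, and others are said to be chosen later. All 27 symbols matched RefSeq (ARS-UCD2.0), where 7 overlap another gene (ACAT2, NPC1, NPC2, ABCG1, LSS, HSD17B7 and NSDHL), so their counts are less certain. Besides them, 1 table row (CYP27C1) has a mouse match to a member. Promoter motifs and levels per coding length were planned but not run. A few listed genes are not reported here. Other scalings (total counts, DESeq2 1.42.0 size factors, upper quartile), minimums and thresholds were tried.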

Additional observations from a re-analysis of the deposited data

How the results depend on the processing

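Of 40 medians and counts over the gene groups recomputed with another scaling, gene type, minimum or call rule, 38 stayed within set limits. For a count the limit was 1.5 times. A median had to lie between the median lower bound and the median upper bound of the genes' intervals. With a minimum of 500 summed counts, which leaves 19 of the 27 genes, 3 in place of 5 were higher in HH past 25%. By the point ratio without its interval, 11 were. LSS was the lowest of these at 0.32, and 19.2% of all tested genes had a higher ratio. ABCA1 was the 1 gene past 2-fold under every alternative tried. The medians ran from 0.30 to 0.39 for the synthesis enzymes and from −0.28 to −0.21 for the other 9 genes. Each other scaling shifted all log2 ratios, and so the medians, by 1 amount, from −0.02 to 0.05. That makes it a weak check on the medians. Under total counts APOE was at −0.22, past the edge of its interval. With upper-quartile scaling 3 genes in place of 2 were lower in HH past 25%, the third being SOAT1. No paired analysis was possible because each code is 1 library. Genes with few counts, such as TM7SF2, LSS and ACAT2, have wide intervals. At their depth only a difference well above 25% could bring the whole interval past that limit.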
